A study of Mus musculus with 12 samples.

Results

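DNA replication and S phase genes were followed in mouse colon adenoma cells that had been sorted by Mex3a and Lgr5 status. The set was a list of 43 genes given by symbol, among the 17097 genes with a single-symbol probe set on the array, and covered origin licensing, helicase activation, polymerases and primase, the clamp, its loader and the lagging strand, nucleotide supply, G1/S factors and chromatin assembly. Of the 43, 42 had such a probe set (Chaf1a was not analysed here) and 40 passed the filter on low signal. Fen1, the flap nuclease of Okazaki fragments, and Ccne2, a cyclin E, stayed below the filter level of 4.40 (log2) on all 12 arrays, with Fen1 between 4.00 and 4.18 and Ccne2 between 2.76 and 3.16.

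Each of 3 mice, MKL358, MKL347 and MKL367, gave 1 array to each of 4 adenoma cell populations. Among Lgr5+ cells these were Mex3a+ and Mex3a- cells, and the same among Lgr5- cells, with 500 sorted cells per array for MKL358 and 2000 for the other two mice. All 12 samples carry the genotype label ki/+, whose allele the labels do not spell out, and each replicate pooled several colon adenomas of a mouse. The product of Mex3a binds RNA, and that of Lgr5 is a Wnt pathway receptor of crypt base stem cells. As a check of the sort, the Mex3a transcript was higher by 0.58 in Mex3a+ Lgr5+ cells and by 0.79 in Mex3a+ Lgr5- cells than in their Mex3a- counterparts, and Lgr5 was higher by 1.55 in the Lgr5+ populations (log2 differences, limma adjusted p = 0.00851, 0.000800 and 2.41e-05). The first of these had an adjusted p of 0.0579 without the pairing by mouse. Lgr5 also differed with Mex3a status, by 1.27 in Lgr5- cells (limma adjusted p = 4.92e-05) and by 0.36 in Lgr5+ cells (0.108). The Mex3a contrast in Lgr5- cells was thus not made at equal Lgr5 RNA. Among Lgr5+ cells all 3 Mex3a+ arrays also lay above all 3 Mex3a- arrays for Lgr5, so equal Lgr5 RNA cannot be assumed there. In bulk samples, fewer cells in S phase and less RNA per cell cannot be told apart.

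Before S phase, the origin recognition complex, Cdc6 and Cdt1 load the MCM helicase onto origins, and geminin later blocks Cdt1 so that each origin is licensed once per cycle. Cdc45 and the GINS complex then turn the loaded helicase into an active one, primase and polymerase alpha lay down primers, and polymerases delta and epsilon extend them with the help of the PCNA clamp and its loader RFC. Deoxynucleotides come from ribonucleotide reductase, thymidylate synthase and thymidine kinase. Many of these genes are targets of E2F factors, and in the normal colon their RNA is richest in the dividing lower crypt.

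Because E2F sites are a known feature of such promoters, the start regions of the members were searched for the E2F motif letters. RefSeq start regions of GRCm38.p6 (250 bases before to 50 after the start) were at hand for 35 of the 43 members. At least 1 match to TTTCCCGC, TTTCGCGC, TTTGCCGC or TTTGGCGC on either strand, overlaps counted, stood in 13 of the 35 (37.1%), against 2.61% of the 27025 genes with a start region and 4.36% of the 10123 tested genes with one. Of the members called lower in either Lgr5 state, 2 of 13 with a start region had a match (15.4%), Mcm6 and Cdc6. Of the tested members called in neither state, 10 of 19 had one (52.6%). These 10 include Cdt1, Mcm3, Mcm5 and Lig1, which were called lower when both Lgr5 states were averaged. The contrast between these shares thus depends on where the threshold falls. A few stretches of the 150 bases before the start are shown as examples, with matches in capitals. Tk1 and Rrm2 had lower signal in Mex3a+ cells in both Lgr5 states and no match in the window, Mcm6 (both states) and Cdc6 (Lgr5+ cells) were lower and have matches, Rfc3 was the 1 member that was higher, and Orc1 did not pass in either state.
Tk1, GRCm38.p6 chr11:117826015-117826164, minus strand: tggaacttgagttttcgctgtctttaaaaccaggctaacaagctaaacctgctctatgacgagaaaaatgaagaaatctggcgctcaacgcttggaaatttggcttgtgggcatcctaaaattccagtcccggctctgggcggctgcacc
Rrm2, GRCm38.p6 chr12:24708104-24708253, plus strand: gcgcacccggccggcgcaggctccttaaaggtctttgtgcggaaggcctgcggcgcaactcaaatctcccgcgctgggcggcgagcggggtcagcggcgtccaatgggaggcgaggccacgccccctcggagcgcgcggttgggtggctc
Mcm6, GRCm38.p6 chr1:128359706-128359855, minus strand: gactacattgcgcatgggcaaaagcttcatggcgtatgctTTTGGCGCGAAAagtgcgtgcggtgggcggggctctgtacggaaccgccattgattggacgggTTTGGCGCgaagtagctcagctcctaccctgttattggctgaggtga
Cdc6, GRCm38.p6 chr11:98908001-98908150, plus strand: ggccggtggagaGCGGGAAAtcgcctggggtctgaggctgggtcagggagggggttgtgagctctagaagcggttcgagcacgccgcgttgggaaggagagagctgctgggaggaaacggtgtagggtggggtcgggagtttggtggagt
Rfc3, GRCm38.p6 chr5:151651209-151651358, minus strand: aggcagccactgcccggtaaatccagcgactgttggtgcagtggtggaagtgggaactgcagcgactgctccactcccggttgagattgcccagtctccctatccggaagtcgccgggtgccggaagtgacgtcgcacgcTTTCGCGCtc
Orc1, GRCm38.p6 chr4:108579304-108579453, plus strand: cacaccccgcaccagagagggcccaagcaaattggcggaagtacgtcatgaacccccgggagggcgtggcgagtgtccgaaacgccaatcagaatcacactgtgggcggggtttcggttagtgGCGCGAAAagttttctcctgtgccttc
Mcm6 has 2 overlapping matches that begin 110 and 106 bases before the start and 1 more that begins 47 bases before it. The match of Cdc6 begins 138 bases and that of Orc1 27 bases before the start. Rfc3 has 2 matches in the full window searched, of which the 1 in the stretch shown begins 10 bases before the start. A match describes letters in a window, and its presence was not tested against the Mex3a differences.

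In Lgr5+ cells, 13 of the 40 tested replication genes were lower in Mex3a+ than in Mex3a- cells, 0 were higher and 27 did not pass (limma with the mouse as a block, adjusted p under 0.05 over 12595 genes; 22 at an unadjusted p under 0.05), where 13.2% of all genes tested were lower and 8.84% higher. The median log2 difference of the members was -0.25, against -0.01 over all genes tested, and 37 of the 40 differences were negative. All 3 Mex3a+ arrays lay below all 3 Mex3a- arrays for 20 members, a pattern shown by 15.9% of all genes, and 30 members were lower in 3 of 3 mice (29.7% of all genes). The median difference of the members was -0.16 in MKL358, -0.26 in MKL347 and -0.31 in MKL367. Without the pairing by mouse 4 members were called lower, where 4.80% of all genes were. Without MKL347, 3 members were called, and the share of all genes in that setting is not given here.

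In Lgr5- cells the members as a group stood close to the background. Of the 40, 11 were lower and 1 higher, where 21.1% of all genes tested were lower and 10.8% higher. The median difference was -0.13, against -0.03 over all genes, and 9 members had all 3 Mex3a+ arrays below all 3 Mex3a- arrays (21.1% of all genes). The median was 0.03 in MKL358, -0.17 in MKL347 and -0.25 in MKL367. After a further quantile normalization 3 members were lower and 3 higher (15.5% and 13.9% of all genes). It ended 8 of the 12 calls, with differences of -0.15 for Rpa2 (limma adjusted p = 0.238), -0.19 for Gins1 (0.134), -0.33 for Prim2 (0.111), -0.25 for Mcm10 (0.0918), -0.25 for Rrm2 (0.0813), -0.26 for Pola2 (0.0692), -0.32 for Mcm6 (0.0554) and -0.28 for Rfc5 (0.0535). Rrm1 kept its call with a smaller difference (-0.26, 0.0410). Of the 3 members higher after quantile normalization, Rfc3 was also called higher in the fit reported, and the others were not.

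**Figure D1:**
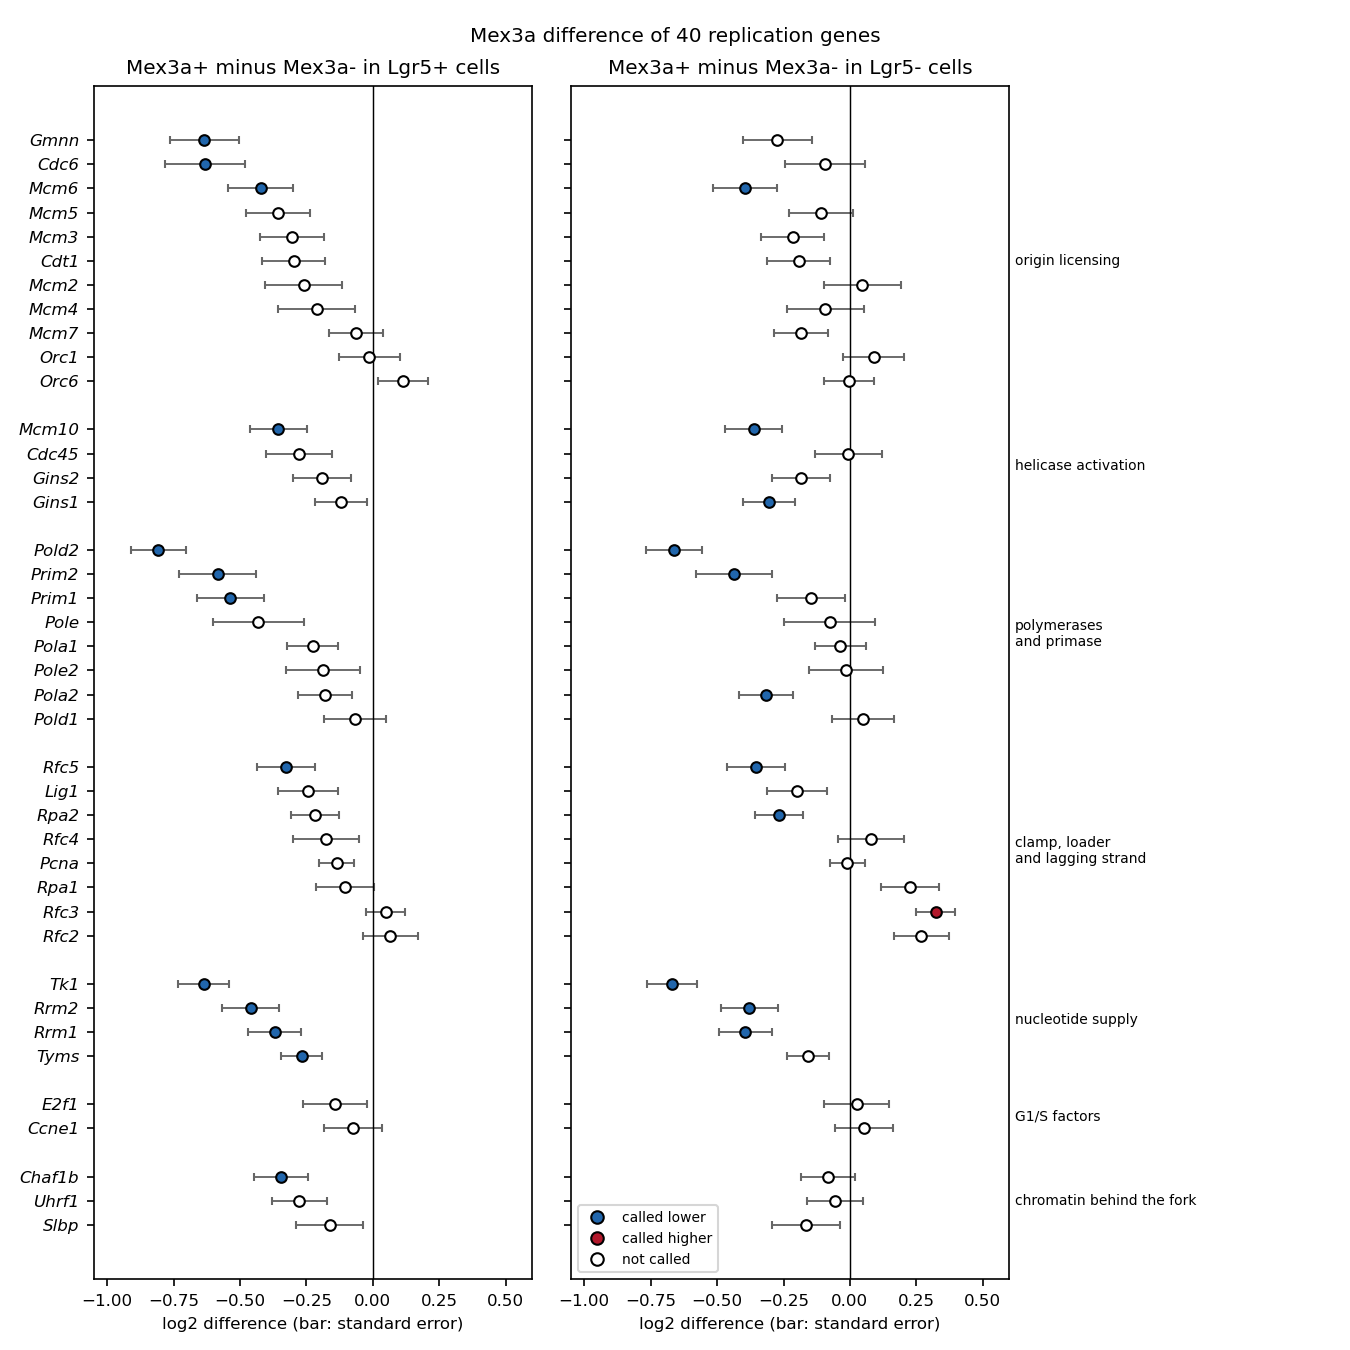
Log2 difference of Mex3a+ minus Mex3a- cells for the 40 tested members, in Lgr5+ cells (left) and Lgr5- cells (right), grouped by role, with bars for the standard error of the paired limma fit. Filled points passed at an adjusted p under 0.05; 13 points are filled on the left, all below 0, and 12 on the right, of which Rfc3 alone lies above 0.

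The 4 genes of nucleotide supply were the role group with every member called in Lgr5+ cells, where 13.2% of all genes were lower. Their median difference was -0.42 there and -0.39 in Lgr5- cells. Values below are log2 signals in the order MKL358, MKL347 and MKL367. Tk1, the cytosolic thymidine kinase of the salvage route, had 7.33, 6.998 and 7.10 in Mex3a+ Lgr5+ cells, against 7.86, 7.72 and 7.76 in Mex3a- Lgr5+ cells, and 7.22, 7.10 and 7.17 in Mex3a+ Lgr5- cells, against 7.80, 7.96 and 7.74 in Mex3a- Lgr5- cells. All 6 Mex3a+ arrays lay below all 6 Mex3a- arrays. Tk1 was 1.56-fold lower in Lgr5+ cells (-0.64, SE 0.09, limma adjusted p = 0.000483) and 1.59-fold lower in Lgr5- cells (-0.67, SE 0.09, adjusted p = 0.000199), and it kept both calls under every alternative run.

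Rrm2, the small subunit of ribonucleotide reductase that accumulates in S phase, had 8.18, 7.83 and 7.83 in Mex3a+ Lgr5+ cells, against 8.52, 8.34 and 8.37 in Mex3a- Lgr5+ cells, and 8.15, 8.10 and 7.91 in Mex3a+ Lgr5- cells, against 8.28, 8.58 and 8.43 in Mex3a- Lgr5- cells. Rrm1, the large subunit, had 8.07, 7.96 and 7.92 in Mex3a+ Lgr5+ cells, against 8.52, 8.37 and 8.17 in Mex3a- Lgr5+ cells, and 8.04, 8.18 and 7.88 in Mex3a+ Lgr5- cells, against 8.27, 8.62 and 8.40 in Mex3a- Lgr5- cells. For both subunits the Mex3a+ arrays lay below the Mex3a- arrays in each Lgr5 state. Rrm2 differed by -0.46 (SE 0.11, limma adjusted p = 0.00896) in Lgr5+ cells and -0.38 (SE 0.11, adjusted p = 0.0188) in Lgr5- cells, and Rrm1 by -0.37 (SE 0.10, adjusted p = 0.0187) and -0.39 (SE 0.10, adjusted p = 0.00983). Without the pairing, Rrm2 had an adjusted p of 0.0435 in Lgr5+ cells and 0.0585 in Lgr5- cells, and Rrm1 0.0973 and 0.0511. In Lgr5+ cells Rrm2 had 0.0637 and 0.0934, and Rrm1 0.114 and 0.0648, without mice MKL347 and MKL367; in Lgr5- cells these were 0.116 and 0.188, and 0.0686 and 0.119. Their other probe sets gave -0.46 and -0.33 in Lgr5+ cells and -0.46 and -0.25 in Lgr5- cells, all called over all probe sets (adjusted p = 0.0266, 0.0144, 0.0202 and 0.0388).

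Tyms, thymidylate synthase, had 9.32, 9.42 and 9.37 in Mex3a+ Lgr5+ cells, against 9.52, 9.65 and 9.74 in Mex3a- Lgr5+ cells, and 9.23, 9.60 and 9.55 in Mex3a+ Lgr5- cells, against 9.33, 9.70 and 9.82 in Mex3a- Lgr5- cells. The groups did not overlap in Lgr5+ cells and overlapped in Lgr5- cells. The difference was -0.27 (SE 0.08, limma adjusted p = 0.0280; 0.252 without the pairing) in Lgr5+ cells and -0.16 (SE 0.08, adjusted p = 0.145) in Lgr5- cells. The Lgr5+ call was also lost without mouse MKL347 (0.127) or MKL367 (0.200), and 3 dimmer Tyms probe sets had differences of -0.01, 0.10 and -0.29 there, none called.

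**Figure D2:**
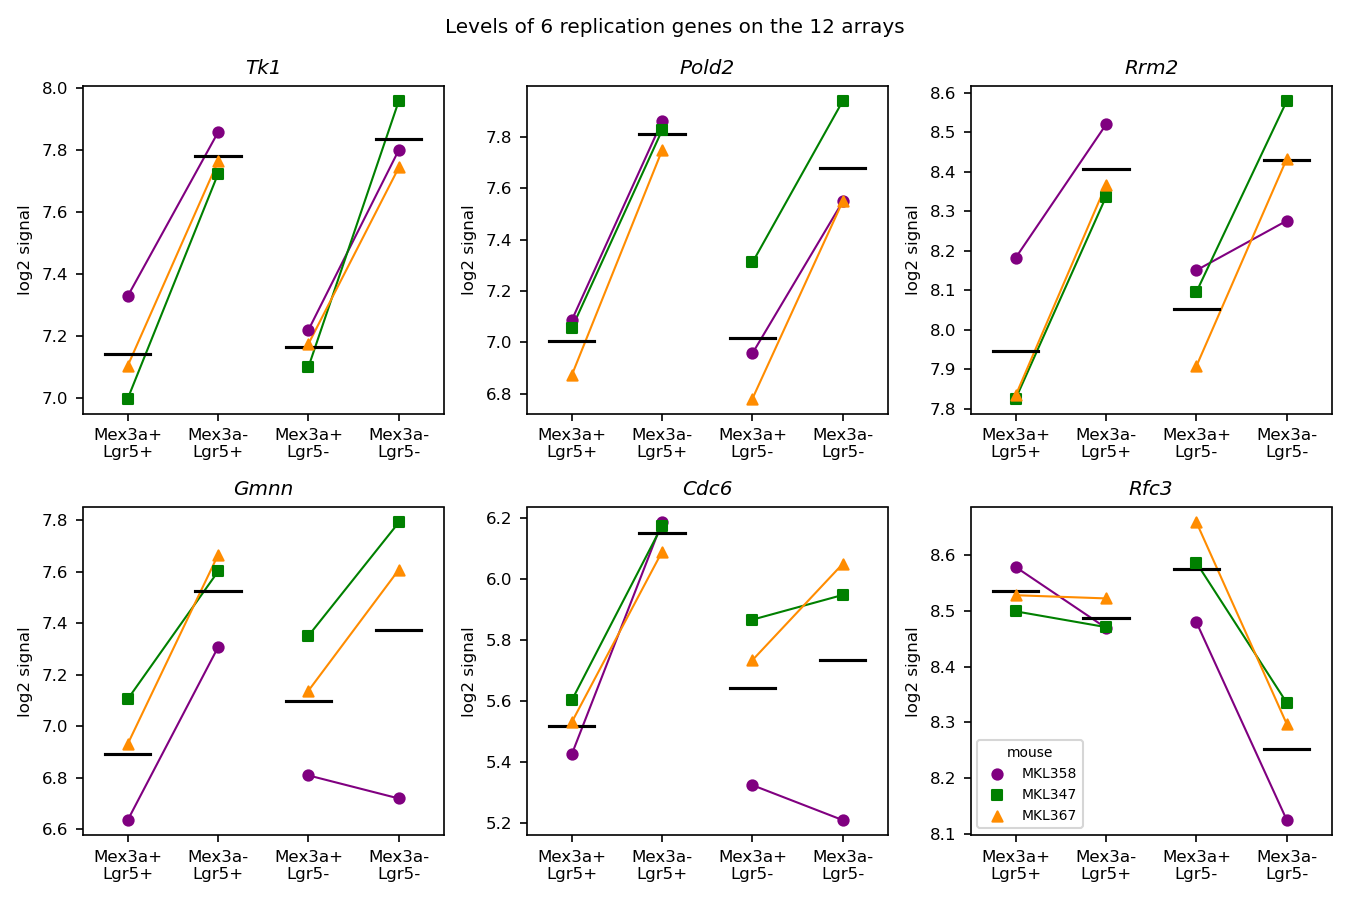
Log2 signal of 6 members on the 12 arrays, by population on the horizontal axis; points are single arrays coloured by mouse, thin lines join the Mex3a+ and Mex3a- arrays of a mouse, and black bars are population means. Tk1, Pold2 and Rrm2 are lower on all Mex3a+ arrays of each Lgr5 state, Gmnn and Cdc6 separate in Lgr5+ cells and overlap in Lgr5- cells, and Rfc3 is higher on all 3 Mex3a+ Lgr5- arrays.

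Among the 8 polymerase and primase genes, 3 were lower in Lgr5+ cells and 3 in Lgr5- cells, where 13.2% and 21.1% of all genes were. All 8 differences were negative in Lgr5+ cells (median -0.33). Pold2, the second subunit of polymerase delta, had 7.09, 7.05 and 6.87 in Mex3a+ Lgr5+ cells, against 7.86, 7.83 and 7.75 in Mex3a- Lgr5+ cells, and 6.96, 7.31 and 6.78 in Mex3a+ Lgr5- cells, against 7.55, 7.94 and 7.55 in Mex3a- Lgr5- cells. Neither pair of groups overlapped. Pold2 was 1.75-fold lower in Lgr5+ cells (-0.81, SE 0.11, limma adjusted p = 0.000216) and 1.58-fold lower in Lgr5- cells (-0.66, SE 0.11, adjusted p = 0.000458), the lowest difference of the 40 members in Lgr5+ cells and second to Tk1 in Lgr5- cells. Like Tk1, it kept both calls under every alternative run. Pold1, the catalytic subunit of the same polymerase, differed by -0.07 (SE 0.12, adjusted p = 0.741) in Lgr5+ cells and 0.05 (SE 0.12, adjusted p = 0.787) in Lgr5- cells.

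Prim2, the regulatory subunit of primase, had 7.11, 6.89 and 6.88 in Mex3a+ Lgr5+ cells, against 7.56, 7.75 and 7.33 in Mex3a- Lgr5+ cells, and 6.86, 7.28 and 7.15 in Mex3a+ Lgr5- cells, against 7.59, 7.86 and 7.14 in Mex3a- Lgr5- cells. Prim1, the catalytic subunit, had 7.09, 6.77 and 7.04 in Mex3a+ Lgr5+ cells, against 7.49, 7.53 and 7.48 in Mex3a- Lgr5+ cells, and 7.02, 7.28 and 7.05 in Mex3a+ Lgr5- cells, against 6.997, 7.45 and 7.35 in Mex3a- Lgr5- cells. Both subunits separated the groups in Lgr5+ cells and overlapped in Lgr5- cells. Prim2 differed by -0.58 (SE 0.14, limma adjusted p = 0.0111; 0.0730 without the pairing) in Lgr5+ cells and by -0.43 (SE 0.14, adjusted p = 0.0356; 0.127) in Lgr5- cells, and Prim1 by -0.54 (SE 0.13, adjusted p = 0.00896; 0.0338) in Lgr5+ cells and by -0.15 (SE 0.13, adjusted p = 0.408) in Lgr5- cells. Without mouse MKL347 the 3 calls were lost (Prim2 0.126 in Lgr5+ and 0.164 in Lgr5- cells, Prim1 0.0752), as were those of Prim2 in Lgr5- cells without MKL358 (0.219) and of Prim1 without MKL367 (0.0529). A second Prim1 probe set differed by -0.12 (adjusted p over all probe sets 0.660) in Lgr5+ cells, and 2 dimmer Prim2 probe sets by -0.20 and -0.11 (0.277 and 0.674).

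Pola2, the accessory subunit of polymerase alpha, had 6.67, 6.61 and 6.48 in Mex3a+ Lgr5- cells, against 6.83, 6.95 and 6.92 in Mex3a- Lgr5- cells, with no overlap (-0.31, SE 0.10, limma adjusted p = 0.0330). That call was lost without the pairing (0.0807), without MKL347 (0.156) and without MKL367 (0.252). In Lgr5+ cells Pola2 differed by -0.18 (adjusted p = 0.244). A dimmer Pola2 probe set gave -0.01 in Lgr5- cells and -0.33 in Lgr5+ cells (adjusted p over all probe sets 0.978 and 0.0842). Pole, the catalytic subunit of polymerase epsilon, had 5.19, 5.50 and 5.61 in Mex3a+ Lgr5+ cells, against 6.06, 5.70 and 5.84 in Mex3a- Lgr5+ cells, which did not overlap but did not pass (-0.43, SE 0.17, adjusted p = 0.0965). Pola1 and Pole2, subunits of polymerases alpha and epsilon, had differences of -0.23 and -0.19 in Lgr5+ cells (adjusted p = 0.116 and 0.381) and -0.04 and -0.02 in Lgr5- cells (0.800 and 0.946). Pola1 had a mean level of 4.62 and was above the filter level on 8 of the 12 arrays.

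Of the 11 licensing genes, 3 were lower in Lgr5+ cells and 1, Mcm6, in Lgr5- cells. Of all genes tested, 13.2% and 21.1% were lower in these states, so that the Lgr5- count is below the background. Gmnn, the gene of geminin, had 6.63, 7.10 and 6.93 in Mex3a+ Lgr5+ cells, against 7.31, 7.60 and 7.66 in Mex3a- Lgr5+ cells, and 6.81, 7.35 and 7.14 in Mex3a+ Lgr5- cells, against 6.72, 7.79 and 7.61 in Mex3a- Lgr5- cells. Cdc6, the loader of the MCM helicase, had 5.42, 5.60 and 5.53 in Mex3a+ Lgr5+ cells, against 6.19, 6.18 and 6.09 in Mex3a- Lgr5+ cells, and 5.32, 5.87 and 5.73 in Mex3a+ Lgr5- cells, against 5.21, 5.95 and 6.05 in Mex3a- Lgr5- cells. Both separated the groups in Lgr5+ cells, and in Lgr5- cells both were slightly higher on the Mex3a+ array of MKL358 and lower on those of the other two mice. Gmnn differed by -0.63 (SE 0.13, limma adjusted p = 0.00393; 0.152 without the pairing) in Lgr5+ cells and by -0.27 (SE 0.13, adjusted p = 0.130) in Lgr5- cells, and Cdc6 by -0.63 (SE 0.15, adjusted p = 0.00926; 0.0762) and -0.09 (SE 0.15, adjusted p = 0.671). The Gmnn call was lost without MKL367 (0.0540), and the Cdc6 call without MKL347 (0.0650) and without the Mex3a- Lgr5+ array of MKL358 (0.0540).

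Mcm6, a subunit of the helicase, had 7.25, 6.78 and 6.98 in Mex3a+ Lgr5+ cells, against 7.56, 7.46 and 7.26 in Mex3a- Lgr5+ cells, and 6.77, 6.90 and 6.69 in Mex3a+ Lgr5- cells, against 7.13, 7.38 and 7.03 in Mex3a- Lgr5- cells. The groups did not overlap in either Lgr5 state. The differences were -0.42 (SE 0.12, limma adjusted p = 0.0264; 0.0947 without the pairing) in Lgr5+ cells and -0.40 (SE 0.12, adjusted p = 0.0268; 0.0779) in Lgr5- cells. The Lgr5+ call was lost without MKL347 (0.168) or MKL367 (0.0877), and the Lgr5- call without any 1 mouse (0.0523 to 0.115).

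The other helicase subunits Mcm2, Mcm3, Mcm4, Mcm5 and Mcm7 had differences between -0.36 and -0.06 in Lgr5+ cells and between -0.22 and 0.05 in Lgr5- cells, none called. Mcm5 was just outside the threshold in Lgr5+ cells (-0.36, SE 0.12, limma adjusted p = 0.0513), with 10.01, 9.76 and 9.78 in Mex3a+ cells, against 10.15, 10.31 and 10.16 in Mex3a- cells. Cdt1, the partner of Cdc6 in helicase loading, differed by -0.30 (adjusted p = 0.0976) in Lgr5+ cells and -0.19 (0.242) in Lgr5- cells by its brightest probe set. Its second probe set gave -0.59 and -0.39 (adjusted p over all probe sets 0.00268 and 0.0223), so that the call for Cdt1 depends on the probe set. The origin recognition genes Orc1 and Orc6 had -0.01 and 0.11 in Lgr5+ cells and 0.09 and 0.00 in Lgr5- cells (adjusted p between 0.441 and 0.988).

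Of the 4 genes that activate the helicase, Mcm10 was lower in both Lgr5 states. Mcm10, a factor of helicase activation, had 7.24, 7.28 and 7.15 in Mex3a+ Lgr5+ cells, against 7.58, 7.59 and 7.57 in Mex3a- Lgr5+ cells, and 7.29, 7.38 and 7.16 in Mex3a+ Lgr5- cells, against 7.49, 8.00 and 7.44 in Mex3a- Lgr5- cells. Neither pair of groups overlapped, and the 3 Mex3a- Lgr5+ arrays lay between 7.57 and 7.59. The differences were -0.36 (SE 0.11, limma adjusted p = 0.0312; 0.141 without the pairing) in Lgr5+ cells and -0.36 (SE 0.11, adjusted p = 0.0216; 0.0928) in Lgr5- cells. The Lgr5+ call was lost without any 1 mouse (0.0582 to 0.181), and the Lgr5- call without MKL347 (0.171) or MKL367 (0.0760). Both other Mcm10 probe sets were called in Lgr5+ cells (-0.46 and -0.57, adjusted p = 0.0172 and 0.0203) and not in Lgr5- cells (-0.31 and -0.26, 0.0677 and 0.236).

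Gins1, a GINS subunit, was lower in Lgr5- cells, with 6.995, 7.59 and 7.40 in Mex3a+ cells, against 7.26, 7.71 and 7.93 in Mex3a- cells, groups that overlap, although the Mex3a+ array was the lower in each mouse. The difference was -0.30 (SE 0.10, limma adjusted p = 0.0314; 0.312 without the pairing), and the call was lost without any 1 mouse (0.0576 to 0.335). In Lgr5+ cells it was -0.12 (adjusted p = 0.433). Cdc45 had -0.28 and Gins2 -0.19 in Lgr5+ cells (adjusted p = 0.141 and 0.244), against -0.01 and -0.19 in Lgr5- cells (0.978 and 0.221).

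The 8 tested genes of the clamp, its loader and the lagging strand had a median of -0.16 in Lgr5+ cells and 0.03 in Lgr5- cells. Rfc5 and Rfc3 encode subunits of the loader RFC, of which the first was called lower and the second higher. Rfc5 had 6.87, 6.98 and 6.70 in Mex3a+ Lgr5+ cells, against 7.18, 7.17 and 7.19 in Mex3a- Lgr5+ cells, and 6.85, 6.99 and 6.72 in Mex3a+ Lgr5- cells, against 6.94, 7.37 and 7.30 in Mex3a- Lgr5- cells. The groups separated in Lgr5+ cells and overlapped in Lgr5- cells. The differences were -0.33 (SE 0.11, limma adjusted p = 0.0498, just inside the threshold; 0.148 without the pairing) and -0.35 (SE 0.11, adjusted p = 0.0268; 0.0813). The Lgr5+ call was lost without any 1 mouse (0.0666 to 0.291), without 10 of the 12 single arrays and after quantile normalization (0.0516), and the Lgr5- call without MKL347 (0.145) or MKL367 (0.262).

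Rfc3, another loader subunit, was the 1 member called higher in the paired fit. It had 8.48, 8.59 and 8.66 in Mex3a+ Lgr5- cells, against 8.12, 8.34 and 8.30 in Mex3a- Lgr5- cells, and 8.58, 8.50 and 8.53 in Mex3a+ Lgr5+ cells, against 8.47, 8.47 and 8.52 in Mex3a- Lgr5+ cells. The groups did not overlap in Lgr5- cells and overlapped in Lgr5+ cells. Rfc3 was 1.25-fold higher in Lgr5- cells (0.32, SE 0.07, limma adjusted p = 0.00567; 0.0263 without the pairing), a call lost without MKL367 (0.0782), and differed by 0.05 (SE 0.07, adjusted p = 0.709) in Lgr5+ cells. A dimmer Rfc3 probe set gave 0.13 in Lgr5- cells (adjusted p over all probe sets 0.474).

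Rfc2 and Rfc4 had 0.27 and 0.08 in Lgr5- cells (adjusted p = 0.0651 and 0.673) and 0.07 and -0.18 in Lgr5+ cells (0.711 and 0.355). Pcna, the clamp itself, had 9.73, 9.76 and 9.79 in Mex3a+ Lgr5+ cells, against 9.88, 9.89 and 9.93 in Mex3a- Lgr5+ cells, which do not overlap, yet the difference of -0.14 (SE 0.07) did not pass (limma adjusted p = 0.164). In Lgr5- cells Pcna differed by -0.01 (SE 0.07, adjusted p = 0.924).

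Rpa1 and Rpa2 encode subunits of the complex that coats single-stranded DNA. Rpa2 had 7.15, 7.41 and 7.25 in Mex3a+ Lgr5- cells, against 7.48, 7.66 and 7.46 in Mex3a- Lgr5- cells, with no overlap (-0.27, SE 0.09, limma adjusted p = 0.0404; 0.126 without the pairing), and -0.22 (adjusted p = 0.109) in Lgr5+ cells. The Lgr5- call was lost without any 1 mouse (0.0962 to 0.153). Rpa1 differed by -0.10 in Lgr5+ cells and 0.23 in Lgr5- cells (adjusted p = 0.559 and 0.135). Lig1, the ligase that joins Okazaki fragments, had -0.24 and -0.20 (adjusted p = 0.146 and 0.196).

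The 2 measured G1/S factors showed no call. E2f1, a transcription factor that drives S phase genes, had 6.89, 6.94 and 6.82 in Mex3a+ Lgr5+ cells, against 6.80, 7.08 and 7.19 in Mex3a- Lgr5+ cells, and 7.12, 6.88 and 7.15 in Mex3a+ Lgr5- cells, against 7.05, 7.14 and 6.89 in Mex3a- Lgr5- cells. The groups overlapped in both Lgr5 states (-0.14 and 0.02, SE 0.12 each, limma adjusted p = 0.458 and 0.898). Ccne1, cyclin E, had -0.08 and 0.05 (adjusted p = 0.686 and 0.751).

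Of the 3 measured genes of chromatin behind the fork, Chaf1b, a subunit of the histone chaperone that loads nucleosomes on new DNA, was lower in Lgr5+ cells. It had 7.99, 7.67 and 7.55 in Mex3a+ Lgr5+ cells, against 8.13, 8.03 and 8.07 in Mex3a- Lgr5+ cells, and 7.79, 7.71 and 7.85 in Mex3a+ Lgr5- cells, against 7.79, 7.90 and 7.90 in Mex3a- Lgr5- cells. The groups separated in Lgr5+ cells and overlapped in Lgr5- cells. The differences were -0.34 (SE 0.10, limma adjusted p = 0.0291; 0.0880 without the pairing) and -0.08 (SE 0.10, adjusted p = 0.574), and the call was lost without MKL347 (0.180) or MKL367 (0.232) and after quantile normalization (0.0681). Uhrf1, which reads newly replicated methylated DNA, had -0.28 and -0.06 (adjusted p = 0.0807 and 0.720), and Slbp, the histone mRNA stem-loop binding protein, -0.16 and -0.16 (0.414 and 0.356).

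Members called lower in both Lgr5 states numbered 8: Mcm6, Mcm10, Prim2, Pold2, Rfc5, Rrm1, Rrm2 and Tk1, where 11.1% of all genes were lower in both. Without the pairing, Pold2 and Tk1 were the members called lower in both. Cdc6, Gmnn, Prim1, Tyms and Chaf1b were called in Lgr5+ cells alone and Gins1, Pola2 and Rpa2 in Lgr5- cells alone, but the test of the difference between the effects does not separate them. That test called 0 of the 40 members and 0.00% of the 12595 genes (3 members and 1078 genes at an unadjusted p under 0.05). The difference of effects was lowest for Cdc6 (-0.54, SE 0.21, limma adjusted p = 0.514), followed by Prim1 (-0.39, SE 0.18, adjusted p = 0.583) and Gmnn (-0.36, SE 0.18, adjusted p = 0.619). Over the members its median was -0.12, and 30 of the 40 values were negative, against a median of 0.03 over all genes.

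Over both Lgr5 states (6 arrays against 6), 20 members were lower and 1, Rfc3, higher in Mex3a+ cells, where 25.3% of all genes were lower and 15.9% higher. These are the mean of both effects above and no further evidence. Cdt1, Lig1, Mcm3 and Mcm5 were called lower here and in neither state singly, with average differences of -0.25, -0.22, -0.26 and -0.23 (limma adjusted p = 0.0339, 0.0397, 0.0263 and 0.0444; 0.185, 0.0988, 0.0518 and 0.117 without the pairing), and 7 to 10 of the 12 single arrays ended each of these calls when left out (0.0503 to 0.128). Quantile normalization ended all 4 (-0.15, -0.12, -0.16 and -0.14; adjusted p = 0.180, 0.220, 0.117 and 0.233), as did leaving out MKL347 (0.0917 to 0.250) or MKL367 (0.239 to 0.412). With the mean of probe sets Mcm3 had -0.17 (0.117) and Mcm5 -0.04 (0.664), and Cdt1 had -0.11 without MKL367. The other Mcm5 probe set averaged 4.30, so that its mean includes signal below the filter level. Between Lgr5+ and Lgr5- cells 0 of the 40 members were called (1 at an unadjusted p under 0.05), where 1.80% of all genes were, and their differences lay between -0.16 and 0.23.

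The counts depended on the pairing and on single mice. Without the pairing, 4 members were lower in Lgr5+ cells (Pold2, Tk1, Prim1 and Rrm2; 4.80% of all genes) and 2 lower and 1 higher in Lgr5- cells (Pold2, Tk1 and Rfc3; 11.7% of all genes lower and 5.15% higher). Without MKL347, 3 members were called in Lgr5+ cells and 3 in Lgr5- cells, and without MKL367, 4 and 3. Without MKL358 the counts were 18 and 13. Leaving out 1 mouse or array also moved the number of all genes called, over the ranges given in the last section. The omission counts here and below are thus not set against the share of all genes in the same setting. Single arrays moved the Lgr5+ count to 4 without the Mex3a+ array of MKL347, 6 without the Mex3a- array of MKL358 and 8 without the Mex3a- array of MKL367. They moved the Lgr5- count to 3 without the Mex3a- array of MKL347, 6 without that of MKL367, 7 and 4 without the Mex3a+ arrays of MKL358 and MKL367, and 17 without the Mex3a- array of MKL358. That last array also moved the Lgr5+ count, to 19. Leaving out the Mex3a+ Lgr5+ array of MKL347 ended the Lgr5+ calls of Prim1 (0.0529), Prim2 (0.0716) and Rrm2 (0.0574), and 2 to 5 of the 12 single arrays ended those of Rrm1, Mcm6, Tyms, Mcm10 and Chaf1b (0.0526 to 0.159). In Lgr5- cells 2 to 5 single arrays ended the calls of Rrm1, Mcm10, Rrm2, Mcm6, Gins1, Prim2, Rfc5 and Pola2 (0.0508 to 0.192), and 9 that of Rpa2 (0.0523 to 0.164). With the mean of a gene's probe sets, Prim1, Prim2 and Tyms lost their Lgr5+ calls (differences of -0.33, -0.30 and -0.09, adjusted p = 0.105, 0.0995 and 0.519), and Mcm10, Pola2, Prim2 and Rfc3 their Lgr5- calls (-0.31, -0.16, -0.28 and 0.23, adjusted p = 0.0566, 0.152, 0.0962 and 0.0552). Chaf1b kept its Lgr5+ call there with a difference of -0.22 (0.0366), although its other probe set averaged 3.96, below the filter level.

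**Figure D3:**
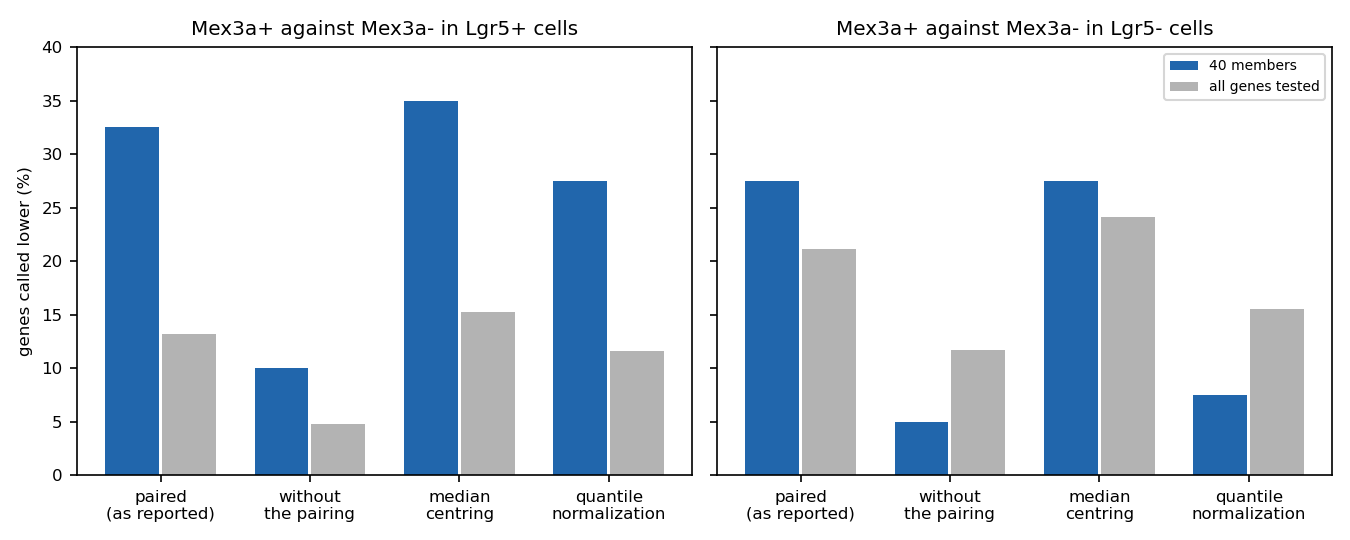
Percent of genes called lower in Mex3a+ than in Mex3a- cells, for the 40 members (blue) and all 12595 genes tested (grey), in the paired fit and under 3 alternatives. In Lgr5+ cells the members' share is above that of all genes in each setting (32.5% against 13.2% as reported, 10.0% against 4.80% without the pairing), while in Lgr5- cells it is 27.5% against 21.1% as reported and falls below the share of all genes without the pairing and after quantile normalization.

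Each list was also summarised on single arrays, as the mean deviation of its genes from their own means over the 12 arrays. For the members this was between -0.14 and -0.09 on the 3 Mex3a+ Lgr5+ arrays, against 0.11 to 0.19 on the 3 Mex3a- Lgr5+ arrays, which leaves a gap. On the Mex3a+ Lgr5- arrays it was -0.17, 0.01 and -0.11, against -0.18, 0.23 and 0.10 on the Mex3a- Lgr5- arrays. The Mex3a- Lgr5- array of MKL358, from 500 cells, was thus the lowest of the 12, while the other 2 arrays of that population were above all Mex3a+ arrays. Genes of the G2 and M phases did not share that low value, at 0.09 on the same array. Over the 12 arrays the members that followed the median of the other members most closely were Lig1 (r = 0.938), Gmnn (0.909), Cdc6 (0.907) and Prim1 (0.899), and the least close were Orc1 (-0.288), Rfc3 (-0.063) and E2f1 (0.104), as a description of arrays that share mice and populations. The signal of Orc1 was close to the filter level (mean 4.82).

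**Figure D4:**
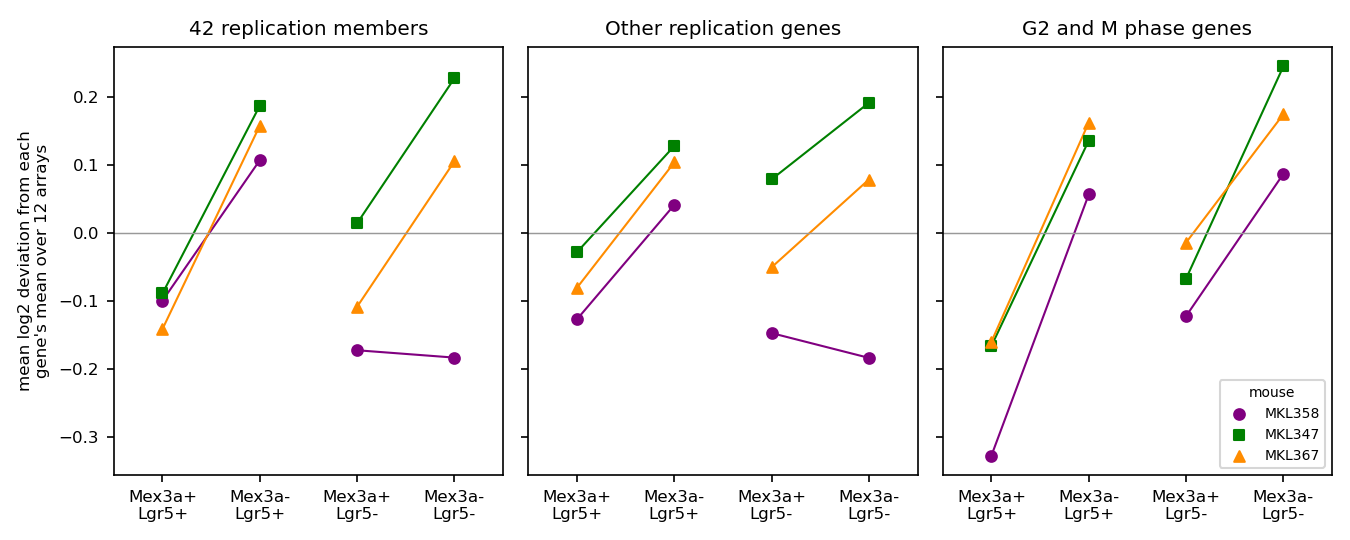
Mean log2 deviation of 3 gene lists from each gene's mean over 12 arrays, by population, with points coloured by mouse and lines joining the Mex3a+ and Mex3a- arrays of a mouse. The members lie lower on Mex3a+ than on Mex3a- Lgr5+ arrays in all 3 mice, the Mex3a- Lgr5- array of MKL358 is low for the members (-0.18) and for other replication genes (-0.18), and it is at 0.09 for the G2 and M phase genes.

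A second list of 56 replication genes outside the members, of which 44 were tested, had 5 lower (11.4%, against 13.2% of all genes) and 0 higher in Lgr5+ cells (median -0.18) and 4 lower (9.09%, against 21.1%) and 0 higher in Lgr5- cells (median -0.06). Its share of lower genes was thus no higher than that of all genes in either state. Without the pairing 0 of the 44 were called in either state. Dut, the enzyme that clears dUTP, differed by -0.39 in Lgr5+ cells and -0.41 in Lgr5- cells (limma adjusted p = 0.00638 and 0.00319; 0.154 and 0.0909 without the pairing). Dbf4, the regulatory partner of the kinase that fires origins, differed by -0.50 and -0.43 (adjusted p = 0.0116 and 0.0193; 0.169 and 0.180 without the pairing). Dnmt1, the maintenance DNA methyltransferase, differed by -0.44 in Lgr5+ cells (0.00937; 0.140 without the pairing) and -0.16 in Lgr5- cells (0.265).

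Of 28 tested genes of G1/S control, 3 were lower (10.7%, against 13.2% of all genes) and 1 higher in Lgr5+ cells. In Lgr5- cells 5 were lower (17.9%, against 21.1%) and 3 higher. Of all genes, 8.84% and 10.8% were higher in these states, so that neither higher count exceeds the background. E2f2, an activating E2F factor, had 7.57, 7.10 and 7.22 in Mex3a+ Lgr5+ cells, against 8.34, 8.11 and 8.02 in Mex3a- Lgr5+ cells, and 7.81, 7.47 and 7.21 in Mex3a+ Lgr5- cells, against 8.46, 8.58 and 8.28 in Mex3a- Lgr5- cells. Cdkn1c, a cyclin-dependent kinase inhibitor, had 9.05, 10.13 and 9.77 in Mex3a+ Lgr5+ cells, against 7.70, 7.69 and 7.76 in Mex3a- Lgr5+ cells, and 8.71, 9.49 and 9.25 in Mex3a+ Lgr5- cells, against 7.36, 8.03 and 8.24 in Mex3a- Lgr5- cells. E2f2 was lower and Cdkn1c higher on every Mex3a+ array in both states. E2f2 differed by -0.86 and -0.94 (limma adjusted p = 0.000180 and 4.90e-05), and Cdkn1c was 3.83-fold higher in Lgr5+ and 2.41-fold higher in Lgr5- cells (1.94 and 1.27, adjusted p = 1.22e-05 and 9.58e-05). Cdkn1a, another kinase inhibitor, was lower, by -0.27 and -0.39 (0.0213 and 0.00191; 0.487 and 0.220 without the pairing). Cdk6, a cyclin-dependent kinase, was higher by 0.69 in Lgr5- cells (limma adjusted p = 0.00144, and 0.00598 without the pairing). In Lgr5+ cells Cdk6 differed by 0.36 and was not called (0.0661).

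The G2 and M phase list, with 28 of 30 tested, had 13 lower (46.4%, against 13.2% and 21.1% of all genes) and 0 higher in each Lgr5 state (medians -0.31 and -0.26). Without the pairing the count was 9 in each state, where 4.80% and 11.7% of all genes were lower. Ccna2, cyclin A, differed by -0.49 and -0.51 (limma adjusted p = 0.000527 and 0.000253), Birc5, the mitotic protein survivin, by -0.46 and -0.56 (0.000467 and 6.60e-05), and Cenpa, the centromeric histone, by -0.63 and -0.75 (0.000456 and 8.06e-05). The CHR motif TTTGAA, searched in the same windows on either strand, stood in 18 of the 24 genes of this list with a start region (75.0%) and in 4 of the 35 members (11.4%), against 20.2% of all genes and 14.4% of the tested genes with a start region; E2F letters stood in 1 of the 24 (4.17%).

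Some markers of other cell states moved with Mex3a status beside these genes. Of all genes tested, 13.2% were lower in Lgr5+ and 21.1% in Lgr5- cells, and 8.84% and 10.8% were higher. Of 9 colonocyte markers 7 were lower in Lgr5+ and 8 in Lgr5- cells, with the mean deviation of the list between -1.46 and -0.44 on the 6 Mex3a+ arrays and between 0.39 and 1.66 on the 6 Mex3a- arrays, and of 8 goblet markers 6 and 8 were lower (-1.34 to -0.58 and 0.38 to 1.65). Epithelial markers all passed the filter and had 6 and 7 of 9 lower (-0.38 to -0.09 and 0.08 to 0.39), and crypt stem markers 4 and 5 of 8 higher (-0.15 to 0.47 and -0.58 to 0.16). Of 8 tested myeloid markers 4 were lower in each state (-0.44 to 0.14 and -0.34 to 0.90), with Adgre1 and Itgam below the filter level on all 12 arrays. Lymphocyte markers had 0 of 4 called (-0.10 to 0.13 and -0.12 to 0.12), with Ptprc, Cd3e and Ms4a1 below the filter level on all 12. Fibroblast markers had 0 of 6 called, at 0.94 on the Mex3a- Lgr5+ array of MKL367. Endothelial markers had 1 of 8 higher in each state, close to the share of all genes. The 3' minus 5' signal of the Gapdh and beta-actin controls overlapped between all populations. The part of these lists in the replication differences was not tested.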

How the data were processed

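The deposited values are log2 intensities summarised with RMA, per the submitters' processing notes, from RNA amplified and hybridised to an Affymetrix mouse array; its settings are not given in the sources at hand. Of 45141 probe sets, 28898 carried a single symbol in the platform annotation, and the brightest probe set stood for each of 17097 genes. Genes above a log2 signal of 4.40 (the 40th percentile of all values) on at least 3 arrays were kept, which left 12595. limma 3.58.1 (R 4.3.3) fitted 4 population means with the mouse as a block, eBayes with trend and Benjamini-Hochberg adjustment over all genes, at 0.05; fold changes are 2 to the power of the log2 difference. The pairing comes from the mouse numbers in the labels: deviations from the population means correlated at 0.35 to 0.69 within mice and at -0.46 to 0.15 between mice. Deviations of 3 arrays from their own mean sum to 0, which by itself pushes the values between mice below 0. MKL358 also differed from the other mice in sorted cells per array (500 against 2000), which the values within mice include. The fit was tested on simulated data in which few of the genes were changed. Of changes of 0.5 (log2), the paired fit recovered 68.7% in Lgr5+ cells and 59.7% in Lgr5- cells. Smaller changes were not simulated, and a difference that did not pass is not shown to be absent. Alternatives were no block, no or a stricter filter (60th percentile), quantile normalization, median centring, the mean of or every probe set, array weights, no trend, and omission of each mouse or array. Array medians lay between 4.86 and 4.92, and the number of arrays limits precision. Values on every array are given for up to 12 called members with the smallest p, the first member of each role by p in Lgr5+ cells and some further called members chosen after their values were seen. For the other lists, some of the genes with the smallest p in a Mex3a contrast are named, not all of them. The members, lists and motifs were chosen with earlier results of these data known.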

Additional observations from a re-analysis of the deposited data

Results flagged for a closer look

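Rpa1, a subunit of the single-strand DNA binding complex, had differences of opposite sign in the 2 Lgr5 states by its brightest probe set (-0.10 in Lgr5+ cells and 0.23 in Lgr5- cells), neither of which passed (limma adjusted p = 0.559 and 0.135). It was lower on the Mex3a+ array in 3 of 3 mice among Lgr5+ cells and higher in 3 of 3 mice among Lgr5- cells. It had 8.38, 8.66 and 8.78 in Mex3a+ Lgr5+ cells, against 8.64, 8.69 and 8.80 in Mex3a- Lgr5+ cells, and 8.62, 8.94 and 8.74 in Mex3a+ Lgr5- cells, against 8.10, 8.79 and 8.73 in Mex3a- Lgr5- cells (MKL358, MKL347, MKL367). The difference between the effects was -0.33 (SE 0.15) and did not pass (limma adjusted p = 0.595). In MKL347 and MKL367 the Lgr5+ values differ by 0.03 or less, and most of the difference comes from MKL358. A dimmer Rpa1 probe set had the same sign in both states (0.04 and 0.20, adjusted p over all probe sets 0.832 and 0.141).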

How the results depend on the processing

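Pold2 and Tk1 kept their calls in both Lgr5 states under every alternative run; for the average Mex3a effect, Mcm6, Mcm10, Prim2, Rrm1 and Rrm2 did so too. Without the replicate block, that is without the pairing by mouse, the members called fell to 4 in Lgr5+ cells, 3 in Lgr5- cells and 12 on average, and all genes called to 1009, 2125 and 3422, and 5 for Lgr5 status. Quantile normalization left 6 members in Lgr5- cells. With every probe set as a row, 4210, 6114 and 7937 probe sets were called. For Lgr5 status 134 genes were called with the mean of probe sets and 140 without the trend. Leaving out 1 mouse or array gave 3 to 19 members in Lgr5+ cells, 3 to 17 in Lgr5- cells and 8 to 27 on average. All genes called ranged from 1396 to 3078, from 2429 to 4052, from 0 to 3 for the difference between the effects, and from 47 to 277 for Lgr5 status. The members' median difference ranged from -0.34 to -0.19 in Lgr5+ cells and from -0.19 to -0.037 for the difference between the effects. No member's called difference changed sign. The causes were not tested.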
